A study of Mus musculus with 419 samples.

Results

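Within a female hybrid embryonic stem cell line, most cells held more RNA from the CAST copy of distal chromosome 12 than from the 129 copy, and a minority held both copies at about equal levels. The cells were chosen by this readout. In each of 419 cells, the values of 400 transcript rows, of 206 genes that start beyond 80 Mb on chromosome 12 (mm10), were summed for each allele, and the cell was classed by its 129 share of the sum. A share under 35% was found in 295 cells (70.4%), called skewed cells here, and a share of 42 to 58% in 118 cells (28.2%), called balanced cells. The other 6 cells entered neither class: 3 lay between 35 and 42% and 3 above 58%.

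The series addresses transcriptional bursting, with RNA of the 2 parental alleles told apart cell by cell by RamDA-seq, a full-length total RNA method. All cells are of line F1-21.6, whose chromosome sets come from the mouse strains 129 and CAST. They were kept on laminin-511, with no feeder layer, in medium with fetal bovine serum and leukemia inhibitory factor, and were taken in G1. They share this genotype and culture, no cell was treated, and the labels separate no group of cells, so the 2 classes exist only through the measured share. The labels name no separate cultures or clones, so the cells were treated as 1 sample, and no test or p-value is given. Values are means of 5 sequencing lanes with the SD over lanes (n = 5), a spread that may be technical, and a gene is called higher or lower where its classes differed by at least 1.5-fold with the same sign in all 5 lanes.

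The distal part of mouse chromosome 12 carries genes of several kinds. Esrrb encodes an orphan nuclear receptor of the naive pluripotency network, Hsp90aa1 a cytosolic chaperone, Dync1h1 the heavy chain of cytoplasmic dynein, and Akt1 and Dicer1 a growth kinase and the nuclease that makes microRNAs. The imprinted Dlk1-Dio3 domain lies there too, with the noncoding RNAs Meg3, Rian and Mirg expressed from the maternal copy and Rtl1 from the paternal copy. Pluripotent stem cells in culture are known to gain or lose chromosomes or parts of them, and the dose of an RNA often follows the number of gene copies; DNA was not measured here.

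Both classes had the markers of embryonic stem cells. The summed level of 7 markers (Pou5f1, Sox2, Nanog, Zfp42, Dppa5a, Sall4 and Lin28a) had a median over cells of 2850 ppm (parts per 1000000 of the cell's total over both alleles, the unit of all levels below) in skewed cells (range 93.8 to 5176) and 2805 in balanced cells (14.2 to 4396). Its lower end was not evenly shared: 16 of 295 skewed cells (5.42%, exact 95% interval 3.13 to 8.66%) and 20 of 118 balanced cells (16.9%, 10.7 to 25.0%) had a sum under 50% of the median of all cells, a limit set after the values were seen. In these 36 cells, called low-marker cells, the median of Pou5f1 was 47.5 against 308.1 ppm in the others, and that of Nanog 2.08 against 289.1. Both genes are in the sum, so their lower medians are built in. The markers did not differ alike: Sox2 was at 3.96 against 65.9, Sall4 at 199.8 against 585.0 and Lin28a at 215.9 against 306.9. The 95% interval covers counting error only. Since low-marker cells moved with the class, the main results below are given with and without them.

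Markers of other cell types were few. Over the 6 fibroblast markers, the summed level ran from 0 to 596 in skewed cells and from 0 to 2931 in balanced cells, with medians of 4.44 and 6.09. Col1a1 led it at 5.42 ± 4.58 and 54.3 ± 73.8 ppm, while Dcn was at 0.0469 and 0.219. Sox7, a primitive endoderm marker, was at 10.9 ± 2.71 and 4.65 ± 2.30. Medians of the summed primitive endoderm markers were 7.00 and 2.28, of the trophectoderm markers 2.20 and 2.27, of the neural markers 21.9 and 34.0 and of the mesendoderm markers 7.43 and 4.21. Gata6, Sox17, Cdx2, Pax6 and T had means under 5 ppm in both classes (T 3.72 and 0.963). Other members of these lists had means above 5 ppm in a class. Among them, Tubb3 was at 22.8 ± 7.19 and 48.4 ± 13.6 and Eomes at 7.38 ± 1.85 and 3.65 ± 1.66. Gata3 was at 6.56 ± 3.46 and 4.34 ± 1.31, and Hand1 at 4.77 ± 3.72 and 7.45 ± 9.27. Totals per cell (928785 and 918110 on average), transcripts above 0 (29236 and 29347) and ribosomal RNA (15.3% in both) lay close together. The part of these differences in the results was not tested beyond the values without low-marker cells.

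The 2 classes stood well apart in the share that chose them. The 129 share had a median of 25.3% in skewed cells (quartiles 24.1 and 26.5%, range 12.9 to 34.0%) and 49.5% in balanced cells (quartiles 47.7 and 51.5%, range 44.5 to 57.05%). The cells nearest to the limits lay at 34.0 and 36.2%, at 41.2 and 44.5% and at 57.05 and 78.8%. Skewed cells made up 68.3 to 73.8% of the cells of each lane. On all other autosomes together the 129 share had a median of 47.6 and 47.4%, and on chromosome 12 before 70 Mb 44.8 and 44.4%.

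The share differed through the CAST copy. The summed CAST level of the 206 genes ran from 8237 over a median of 18891 to 28164 ppm in skewed cells, and from 4845 over 6683 to 21502 in balanced cells. The means were 19138 ± 362.6 and 6849 ± 266, a ratio of 2.80 (2.58 to 2.92 over lanes; log2 1.48 ± 0.07). The 129 copy was read at 6477 ± 65.0 and 6709 ± 211 ppm, a ratio of 0.966 (log2 -0.05 ± 0.04). Both alleles together came to 25614 ± 362.7 and 13558 ± 451 ppm, so the skewed cells held 1.89 times the RNA of this region (log2 0.92 ± 0.06). These values were selected on and are a description. Without low-marker cells the ratios were 2.80 for CAST and 1.90 for the sum. With the cells classed on 103 of the genes and the RNA measured on the other 103, the log2 ratio of CAST was 1.52 ± 0.07 (295 skewed and 115 balanced cells).

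**Figure D1:**
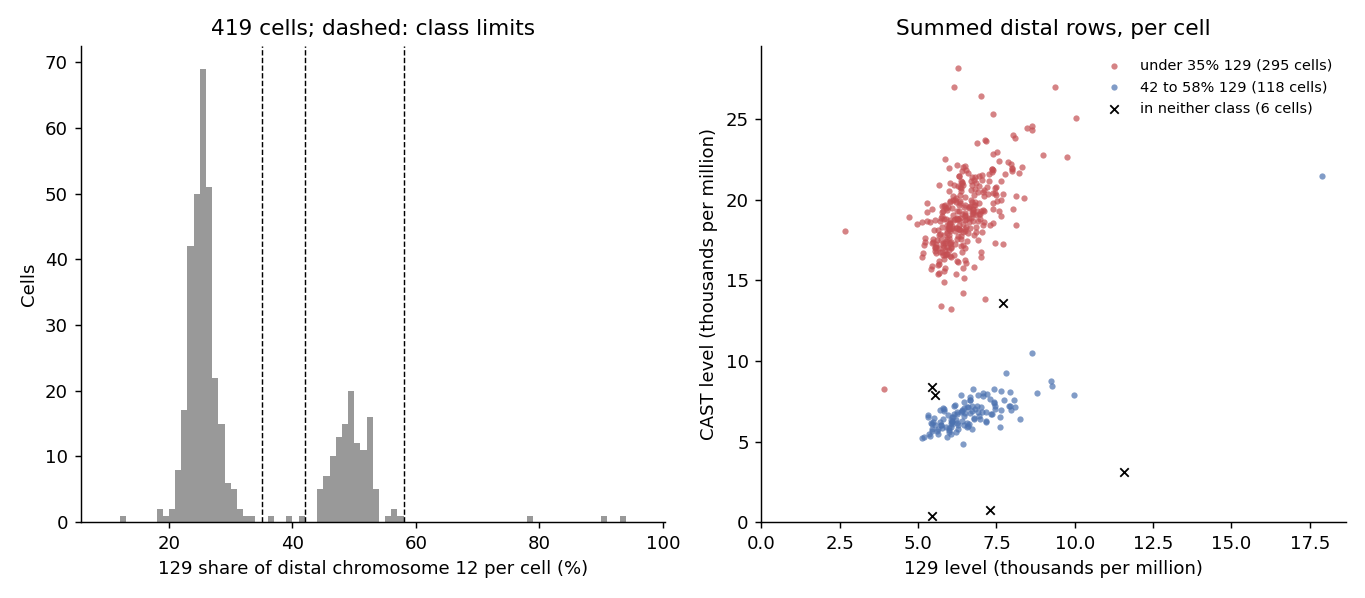
Left: number of cells by the 129 share of the summed distal chromosome 12 rows, in bins of 1 percentage point, with the class limits dashed. Right: each point is a cell, by its summed 129 and CAST level in units of 1000 ppm; most skewed cells (red) lie above the balanced cells (blue) on the CAST axis and beside them on the 129 axis, 1 balanced cell is high in both alleles, 1 skewed cell is low on both axes, and crosses are the 6 cells of neither class.

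A few cells departed from this picture. A balanced cell of lane 2 held 17877 ppm from 129 and 21502 from CAST, 39379 in all, with a 129 share of 45.4%; it was no low-marker cell. It was also among the cells with another autosome under 20% or over 80% from 129, which numbered 22 in the skewed and 5 in the balanced class. Without those cells the log2 ratio of CAST was 1.504 ± 0.04. The 3 cells above 58% had 129 shares of 78.8, 93.7 and 90.7% and CAST levels of 3120, 363.3 and 745 ppm. On the proximal part of chromosome 12 their 129 shares were 71.0, 78.9 and 72.4%, above the highest share of any skewed or balanced cell there (53.8 and 62.7%).

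Genes that the rule did not use place the change on the chromosome. Between 75 and 80 Mb, before the limit of 80 Mb, CAST was at 1492 ± 52.2 ppm in skewed cells and 610 ± 22.9 in balanced cells, 2.45-fold higher (2.33 to 2.55 over lanes), and 129 at 595 ± 20.8 and 571 ± 23.2. Between 70 and 74 Mb CAST was at 325 ± 16.5 and 354.2 ± 12.01, and 129 at 344 ± 13.2 and 391 ± 13.6. The CAST copy was thus read at similar levels in both classes up to 74 Mb and at different levels from 75 Mb on; no row with allele information lay between.

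The nearest genes on each side were Snapc1 and Ppp2r5e. Snapc1, a subunit of the complex that starts small nuclear RNA genes (chromosome 12, 73964481 to 73988966, mm10), had a 129 share of 45.5% in skewed and 47.7% in balanced cells. Its neighbour Hif1a, the oxygen-regulated transcription factor (73901375 to 73947530), stood at 50.5 and 49.2%. Ppp2r5e, a regulatory subunit of protein phosphatase 2A (75450881 to 75596245), had a share of 24.0% against 48.7%, and a level of 110 against 57.5 ppm. Mthfd1, an enzyme of folate metabolism (76255298 to 76319803), followed at 25.9 against 50.4%, with 458 against 271 ppm. Sgpp1, which lies between Ppp2r5e and Mthfd1, was an exception in its share (29.3 and 29.0%), while its level was 16.5 against 7.89. Other genes up to 80 Mb departed too: the shares differed less for Churc1 (34.8 and 38.3%) and Hspa2 (28.6 and 35.7%), and the levels were lower in skewed cells for Rab15 (27.6 against 35.4) and Gpx2 (3.66 against 7.05). The change fell between Snapc1 and Ppp2r5e in the pooled cells of the skewed class; single cells were not placed.

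Along the distal part the CAST excess was present in each window of 10 Mb. CAST ratios were 2.72 from 80 to 90 Mb, 2.35 from 90 to 100 Mb (15 genes), 3.18 from 100 to 110 Mb and 2.604 beyond 110 Mb, while the 129 ratios were 0.962, 0.986, 1.08 and 0.904. The window with the highest CAST ratio holds at least part of the Dlk1-Dio3 domain. What the domain adds to that ratio was not tested.

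**Figure D2:**
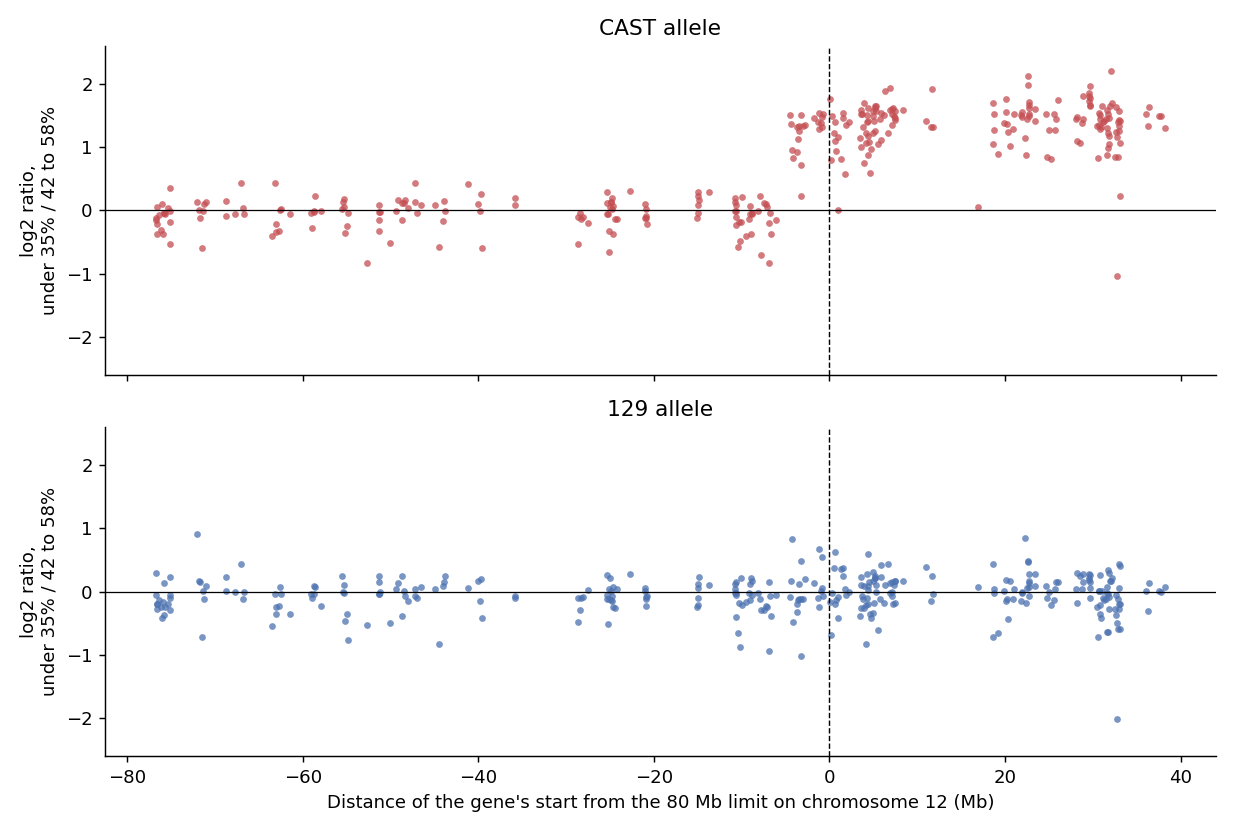
Log2 ratio of the mean level in skewed over balanced cells for the CAST allele (top) and the 129 allele (bottom) of 328 genes of chromosome 12, by the distance of the gene's start from the 80 Mb limit (dashed). CAST ratios lie near 0 up to 6 Mb before the limit and mostly between 1 and 2 from 5 Mb before it; 129 ratios lie around 0 throughout.

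Most distal genes followed the summed dose. Of 162 distal genes that averaged 10 ppm or more, 135 were called higher in skewed cells (83.3%) and 1 lower (0.617%); these shares follow from the choice of cells. Without low-marker cells 139 of 159 were called higher (87.4%) and 1 lower (0.629%). Of the 206 genes used by the rule, 160 passed the filter on low values. Their median ratio was 1.86 for the sum (log2 0.90), 2.70 for CAST (log2 1.44) and 1.01 for 129 (log2 0.01). The ratio was higher for CAST than for 129 in 159 of the 160, the exception being a gene with a predicted name, and 52 genes reached 2-fold in the sum.

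The chaperone gene Hsp90aa1 (chromosome 12, 110690605 to 110702728) had the most assigned RNA of the region, not adjusted for length. Over skewed cells it ran from 2342 over a median of 5967 to 12379 ppm, and over balanced cells from 308 over 3257 to 5990. The ranges overlap, and the skewed median lay close to the highest balanced cell. The means were 6205 and 3297 ppm, 1.88-fold apart (log2 0.91 ± 0.06). Its CAST allele was at 4425 against 1525, 2.90-fold higher, and its 129 allele at 1756 against 1750. Papola, the nuclear poly(A) polymerase, was at 609 against 314 (log2 0.95 ± 0.08), the splicing factor gene Rbm25 stood at log2 1.09, and Eif5, a translation initiation factor, at 341 against 186 (log2 0.87 ± 0.03). Ppp4r3a, a regulatory subunit of protein phosphatase 4, stood at log2 0.99.

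Regulators of chromatin, RNA and growth showed similar ratios. Of 50 distal genes with a textbook role that were listed, 43 passed the filter, and 35 were called higher and 0 lower. Their median log2 ratio was 0.88. Over all 162 distal genes 83.3% were called higher and 0.617% lower, with a median of 0.90. These counts follow from the choice of cells. Yy1, a zinc finger regulator of promoters and enhancers, was at 110 against 59.4 ppm (log2 0.88 ± 0.07). Dicer1 was at 272 against 146 (log2 0.90 ± 0.18). The kinase gene Vrk1 was at 129.2 against 56.96 (log2 1.17 ± 0.06), and Wars, the tryptophanyl-tRNA synthetase gene, at 284 against 126 (log2 1.17 ± 0.08). Akt1 was at 119 against 77.7 (log2 0.63 ± 0.46), with a wider spread over lanes.

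Genes at the upper end had CAST ratios above the regional one. Esrrb (86361117 to 86521628) was at 707 against 281.1 ppm (log2 1.33 ± 0.26; 1.13 without low-marker cells), with CAST at 569 against 153 and 129 at 135 against 126. Mirg was at 243 against 80.8 (log2 1.58 ± 0.24), Rian at 2339 against 853 (1.46 ± 0.25), Rtl1 at 348 against 128 (1.44 ± 0.21) and Meg3 at 1029 against 407 (1.35 ± 0.23). Aspg, an asparaginase gene, had a log2 ratio of 1.57 and Itpk1, an inositol phosphate kinase gene, of 1.44. Their CAST log2 ratios ran from 1.74 (Meg3) to 2.21 (Aspg), against the median of 1.44 over the 160 genes, and their 129 log2 ratios from 0.11 (Esrrb) to 0.47 (Itpk1).

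Esrrb was far from uniform within a class. It ran from 0 over a median of 728 to 1411 ppm in skewed cells and from 0 over 328 to 776 in balanced cells, and was above 0 in 99.3 and 94.1% of cells. Low-marker cells held 0.475% of the balanced class's Esrrb, although they are 16.9% of its cells. The class ranges overlap, and cells at 0 occur in both.

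Some distal genes lay below the regional ratio for both alleles. Dync1h1 (110601452 to 110666945) was at 1057 and 898 ppm (log2 0.24 ± 0.09), although it lies next to Hsp90aa1. Over cells it ran from 429 over a median of 980 to 3053 ppm in skewed and from 223 over 816 to 2603 in balanced cells, so the ranges overlap over most of their length. Its CAST allele was at 776 against 440, 1.77-fold higher, and its 129 allele at 274 against 452 (log2 -0.72 ± 0.09). Ckb, a creatine kinase gene, was at 230 and 188 (log2 0.29 ± 0.14), with log2 ratios of 0.88 for CAST and -0.64 for 129. Without low-marker cells the log2 ratios of the sum were 0.30 for Dync1h1 and 0.31 for Ckb.

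Actn1, which encodes an actin crosslinker, was at 417 and 362 ppm (log2 0.22 ± 0.29) over all cells, and at 372.1 and 202.8 without low-marker cells (log2 0.88, called higher). Those cells held 53.8% of its sum in the balanced class. Ahnak2, which encodes a large scaffold protein, was the only distal gene called lower, at 17.5 against 57.3 (log2 -1.61 ± 0.88; -0.91 without low-marker cells). Smoc1, a secreted calcium-binding protein gene, the LIM domain gene Crip1 and Tcl1, a coactivator of AKT, had log2 ratios of -0.26 ± 0.21, -0.18 ± 0.46 and 0.14 ± 0.24, and of -0.25, -0.002 and -0.03 without low-marker cells. In all, the 129 allele was at least 1.5-fold lower in skewed cells for 10 of 160 genes and at least 1.5-fold higher for 3 (Erh, Coq6 and Rin3, named after their values were seen).

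**Figure D3:**
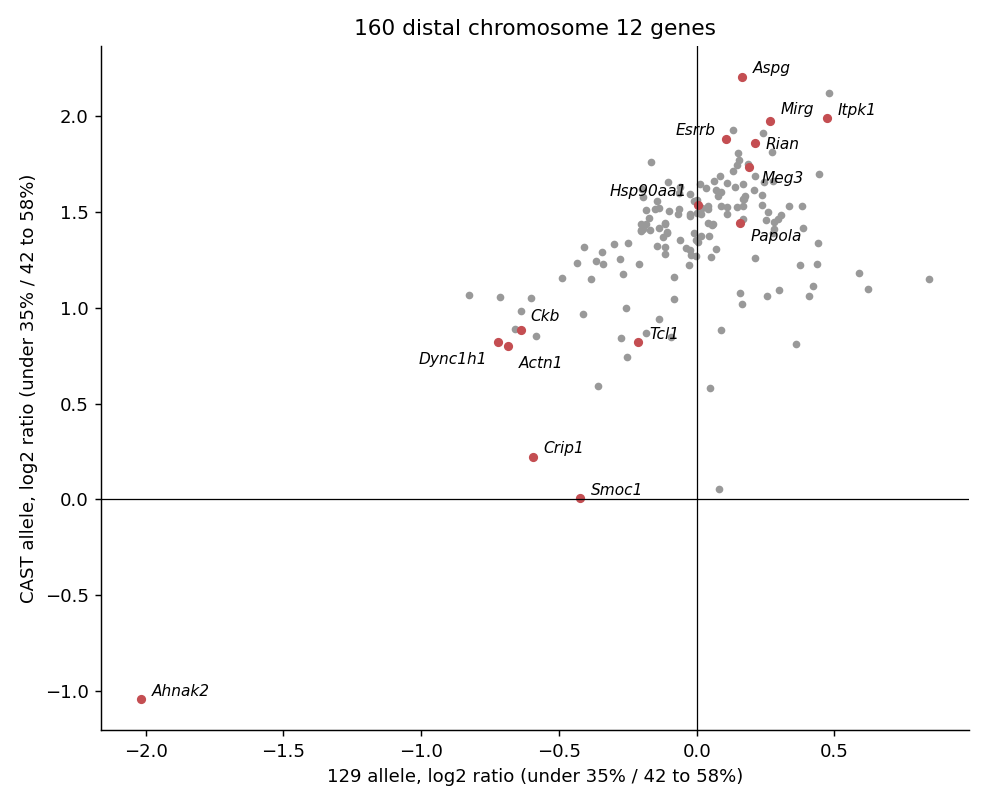
Each point is 1 of 160 distal chromosome 12 genes, by the log2 ratio of skewed over balanced cells for its 129 allele (horizontal) and its CAST allele (vertical). Most genes lie near 0 and 1.5; Dync1h1, Ckb and Actn1 lie lower on both axes, and Ahnak2 is below 0 on both.

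On the other autosomes few genes differed by this measure. Of 8157 genes that averaged 10 ppm or more, 51 (0.625%) were called higher in skewed cells and 271 (3.32%) lower; 13 and 9 of them have predicted or clone names. With differences of the mean log2 value per cell in place of log2 ratios of means, which give less weight to a few high cells, the counts were 145 higher and 164 lower. The median log2 ratio was -0.02, with quartiles of -0.16 and 0.09, and 45.7% of genes were above 0. On proximal chromosome 12, 0 of 135 genes were called higher and 4 lower (Sos2, Map4k5, Sox11 and Ahr, of which Ahr was called also without low-marker cells), with a median of -0.03. With 5 lanes, 35.6% of the other-autosome genes had the same sign in all lanes.

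The number of lower genes moved with the low-marker cells. Without them 39 of 8024 genes (0.486%) were called higher and 126 (1.57%) lower. Of the genes called higher over all cells 32 were called again, 62.7% of 51 and 82.1% of 39; of those called lower 93 were, 34.3% of 271 and 73.8% of 126. For the median gene called lower, low-marker cells held 39.1% of the balanced class's sum, against 16.4% for the median of all genes and 10.9% for those called higher. Both alleles differed in the same direction in 41 of 41 higher and 260 of 262 lower genes with allele information. The calls were made on the sum of both alleles, so this agreement is largely built in. It was not set beside genes that were not called.

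**Figure D4:**
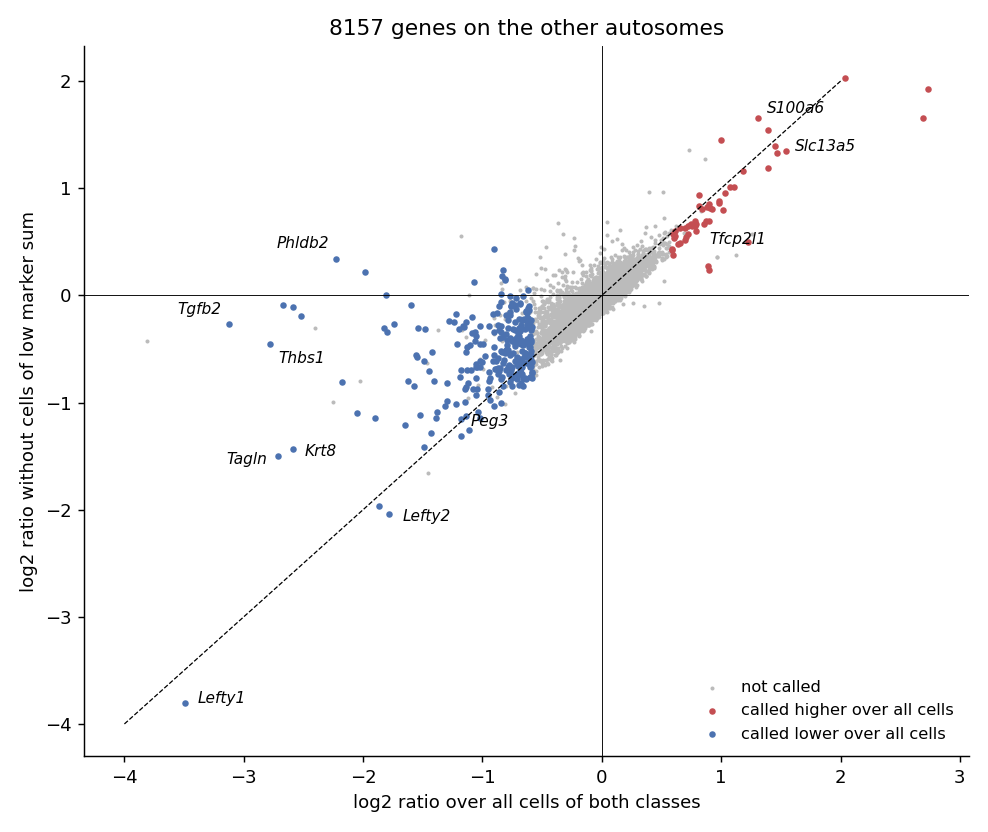
Each point is 1 of 8157 genes of the other autosomes, by its log2 ratio of skewed over balanced cells with all cells (horizontal) and without low-marker cells (vertical); the dashed line marks equal values. Red and blue points are genes called higher and lower over all cells; many lower genes, such as Tgfb2 and Thbs1, lie near 0 on the vertical axis, while Lefty1, Lefty2 and Slc13a5 lie close to the line.

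The gene with the highest ratio among those called higher and not of predicted name was Slc13a5, a sodium-coupled citrate transporter gene (chromosome 11, 72241989 to 72267222). It had a median of 23.1 ppm over skewed cells, with a 90th percentile of 104 and a highest value of 337.03. In balanced cells its median was 1.11 and the highest 160; it was above 0 in 81.0 and 50.8% of cells. The means were 41.5 and 13.7, with lanes from 37.8 to 44.2 and from 11.9 to 15.9, so no lane of 1 class reached the other (log2 1.54 ± 0.19; 1.35 without low-marker cells). Its alleles were 3.05-fold (129) and 2.88-fold (CAST) higher.

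Further values in parentheses are log2 ratios of skewed over balanced cells, with the SD over lanes. Ntn1, the guidance cue netrin, was at 60.8 against 22.5 ppm (log2 1.47 ± 0.58) and the integrin gene Itga1 at 20.0 against 6.77 (1.45 ± 0.69). Aard was at 74.0 against 27.9 (1.40 ± 0.36). Of the FGF pathway, Fgfbp1, a carrier that releases FGFs from the matrix, was at 27.6 against 10.2 (1.39 ± 0.47), and the receptor gene Fgfr3 at 18.7 against 8.08 (1.11 ± 0.26). S100a6, a calcium-binding protein gene, had a log2 ratio of 1.31, rising to 1.65 without low-marker cells. These 6 genes were called higher also without low-marker cells. The others among the 10 highest were Adamts7 (1.03 ± 0.79), Gpa33 (1.01 ± 0.61) and Loxl4 (1.00 ± 0.38). Without low-marker cells their log2 ratios were 0.96, 0.80 and 1.45, past the fold limit. They were then not called, Adamts7 and Gpa33 because the sign was not the same in all lanes and Loxl4 because it averaged under 10 ppm.

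Tfcp2l1 stood out among naive pluripotency genes. This transcription factor gene, which works beside Esrrb in the naive network, ran from 6.09 over a median of 566 to 2420 ppm in skewed cells and from 0 over 296 to 1463 in balanced cells. The means were 599 and 350 (log2 0.78 ± 0.25; 0.64 without low-marker cells, called higher in both), and lanes ran from 531 to 648 and from 299.98 to 409. Of the 17 measured naive genes known as targets or partners of Esrrb it was the only one called. Over all other-autosome genes 0.625% were called higher and 3.32% lower. The median log2 ratio of the 17 was 0.19, or 0.03 without low-marker cells. Nanog, Zfp42 and Dppa5a of this list are in the marker sum that defines those cells, so that move is partly built in. Stat3, the effector of leukemia inhibitory factor, was at 107 against 76.1 (0.50 ± 0.23), Dppa3 at 11.3 against 21.9 (-0.81 ± 0.80) and Klf2 at 33.0 against 37.2 (-0.17 ± 0.20).

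**Figure D5:**
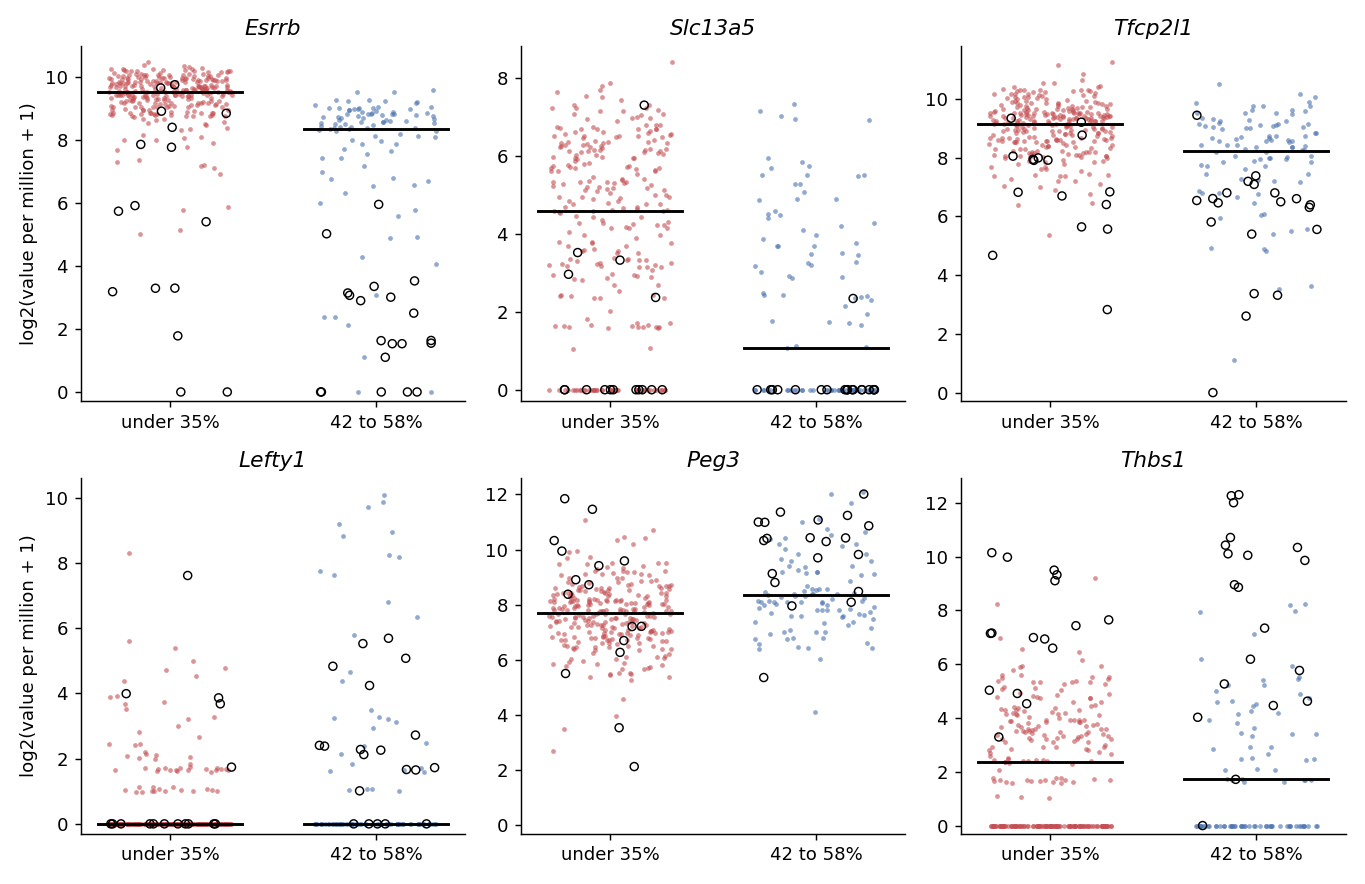
Each point is a cell, by class (horizontal) and log2 of its level in ppm plus 1 (vertical), for 6 genes; bars are class medians and open circles low-marker cells. Esrrb and Tfcp2l1 have higher medians in skewed cells, Slc13a5 is above 0 in 50.8% of balanced cells, Lefty1 is high in few cells, and the highest Thbs1 values belong to low-marker cells.

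Lefty1 and Lefty2, which encode secreted inhibitors of Nodal, were lower in skewed cells and stayed so without low-marker cells. Lefty1 (chromosome 1, 180935022 to 180938400) had a median of 0 in both classes. It was above 0 in 22.7% of skewed and 40.7% of balanced cells, and its highest cells reached 315 and 1088 ppm. The means were 3.19 and 51.7 (log2 -3.49 ± 1.69; -3.80 without low-marker cells), and the 90th percentile over balanced cells was 61.5, so few cells held most of the level. As a difference of mean log2 values per cell, the log2 value was -1.14. Lefty2 was at 7.51 against 36.9 (log2 -1.78 ± 0.98; -2.04). Nodal itself was at 26.6 against 37.8 (-0.45 ± 0.49, not called).

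Of the other genes with the lowest ratios, most were expressed mainly in low-marker cells within the balanced class. Thbs1, a matrix glycoprotein gene, was at 29.2 against 204.3 ppm (log2 -2.78 ± 1.21), with 92.2% of the balanced sum in the 20 low-marker cells, and at -0.45 without them. For the ligand gene Tgfb2 (1.83 against 27.1, log2 -3.12 ± 1.249) that share was 95.7%, and its log2 ratio without them was -0.27. Without them Col12a1 went from -2.67 to -0.09, Acta1 from -2.59 to -0.10, Axl from -2.52 to -0.19 and Phldb2 from -2.22 to 0.34. Loxl2 went from -2.18 to -0.81, past the fold limit and with the same sign in all lanes, but averaged under 10 ppm and so was not called. Krt8, a simple epithelial keratin gene, was at 86.8 against 436 (-2.58 ± 1.52; -1.44, not called). Tagln, an actin-binding protein gene of smooth muscle, was at 18.8 against 124 (-2.72 ± 0.87) and remained called lower at -1.50 (-0.53, under the fold limit, without cells below 70% of the median marker sum).

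Peg3, an imprinted zinc finger gene (chromosome 7, 6703892 to 6730431), was lower with and without low-marker cells. It ran from 3.38 over a median of 209 to 3672 ppm in skewed cells and from 16.2 over 326 to 4355 in balanced cells. The means were 297 and 686 (log2 -1.22 ± 0.32; -1.01). Both means lie above the medians, so high cells weigh on them. The highest balanced cell was no low-marker cell, so the second ratio still holds such cells. Of 16 measured imprinted genes on other autosomes it was the only one called, beside 3.32% lower over all other-autosome genes. The median of the 16 was -0.11, with Igf2 at -1.13 ± 1.65 and Grb10 at 0.45 ± 0.60.

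No measured gene listed as a near copy or partner of a distal gene product was called higher, but only 0.625% of all other-autosome genes were. At that share, lists of this size would hold few or none, so the 0 says little about these genes. Of 30 measured genes listed as near copies of distal genes, 0 were called higher and 4 lower, with a median of -0.04. Over all other-autosome genes 3.32% were called lower. Among the 30 were Hsp90ab1 (3828 against 3902 ppm, log2 -0.03 ± 0.05), Actn4 (-0.03 ± 0.09) and Akt2 (0.32 ± 0.08). The 4 called lower were Tgfb2, Fosl2, Setd7 and Zfp36l2, and of these Zfp36l2 was called without low-marker cells. The list is loose: Setd7 and Eif5b are not close copies of Setd3 and Eif5. Of 36 subunits of complexes that have a distal member, 0 were called higher and 1 lower, Kif5c (22.1 against 43.0; -0.90 ± 0.37; -0.48 and not called without low-marker cells), with a median of 0.01. The HSP90 cochaperone genes Stip1 and Ptges3 had log2 ratios of -0.11 ± 0.08 and 0.14 ± 0.08, and Kdm1a, which binds the distal gene product Rcor1, of 0.00 ± 0.11.

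Counts for pluripotency and lineage genes stand beside 0.625% higher and 3.32% lower over all other-autosome genes. Of 14 core pluripotency genes 0 were called, with a median of 0.17, or 0.001 without low-marker cells, where Rex2 was called lower (-0.74). Pou5f1, Sox2, Nanog, Sall4 and Lin28a of this list are also in the marker sum that defines low-marker cells. The move of the median is thus partly built in. Lin28a was at 288.99 against 373 (-0.37 ± 0.12). Of 11 formative and primed genes 0 were called higher and 3 lower: Pou3f1 (8.08 against 14.2; -0.73 ± 0.47), Zic2 (10.0 against 16.6; -0.69 ± 0.31) and Grhl2 (45.4 against 73.8; -0.68 ± 0.45). Without low-marker cells Zic2 and Grhl2 were called, and Pou3f1 (-0.32) was not. Of 9 primitive endoderm genes Lama1, a laminin gene, was called higher (263 against 173; 0.65 ± 0.46) and Lrp2 (97.8 against 294; -1.53 ± 0.61) and Fn1 (617 against 943; -0.60 ± 0.24) lower; of these Lrp2 was called without low-marker cells (-1.12), and Lama1 (0.49) and Fn1 (-0.33) were not.

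Some genes of other cell types lost their call without the low-marker cells. Shares over all other-autosome genes were 0.625% higher and 3.32% lower, and 0.486% and 1.57% without those cells. Of 10 trophectoderm and simple epithelial genes 1 was called higher (S100a6) and 3 lower (Krt8, Krt19 and Anxa2), and without low-marker cells 1 and 0. Of 6 fibroblast genes 0 were called higher and 2 lower (Thbs1 and Tagln), with a median of -2.56 that became -0.36 without low-marker cells. The intermediate filament gene Vim was at 197.7 and 188 ppm (0.51 ± 1.19) and was called higher without them (200.5 against 106; 0.97). Of 3 neural genes Nes (-1.41 ± 0.28) and Tubb3 (-1.05 ± 0.52) were called lower. Without low-marker cells Tubb3 (-0.87 ± 0.44) was called, and Nes (-0.80 ± 0.88) was not, its sign differing between lanes. No mesendoderm gene passed the filter on low values.

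Among signalling and stress genes the calls were on the lower side. Over all other-autosome genes 0.625% were called higher and 3.32% lower. Of 25 AKT and mTOR pathway genes 0 were called higher and 2 lower, with a median of -0.002: Ddit4, an mTOR inhibitor (12.3 against 24.3; -0.90 ± 0.35), and Pik3cb, a PI3-kinase gene (-0.61 ± 0.18). Without low-marker cells Ddit4 was called (-0.69) and Pik3cb was not (-0.49). Of 16 p53 target genes 0 were called higher and 4 lower, with a median of -0.33 that became -0.10 without low-marker cells. The cell cycle inhibitor gene Cdkn1a was at 20.1 against 36.4 (-0.87 ± 0.24) and was called in both, and Plk2, Perp and Pmaip1 over all cells only (0.14, -0.01 and -0.27 without low-marker cells). Of 9 Notch pathway genes Notch3 was called lower (53.5 against 118; -1.12 ± 0.42; -0.82 without low-marker cells), with a list median of -0.21. Of 17 ERK target genes, 19 heat shock chaperone genes, 15 integrated stress response genes and 17 ubiquitin and autophagy genes 0 were called, with medians of 0.01, -0.02, 0.08 and -0.07.

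Cholesterol synthesis and mitosis genes differed by small amounts in 1 direction. Of 18 cholesterol genes 16 lay below 0, with a median of -0.28 (-0.29 without low-marker cells) against -0.02 over all genes. Srebf2, a transcription factor gene that drives the pathway, had a log2 ratio of -0.50 ± 0.06, and Mvk, the mevalonate kinase gene, of 0.22. Of 20 genes of G2 and mitosis 19 lay above 0 and 0 were called, with a median of 0.23 (0.19), among them Cdc20 at 480 against 372.4 (0.36 ± 0.13) and Cdk1 at 78.1 against 83.1 (-0.08 ± 0.14). Of 19 replication genes 0 were called, with a median of 0.08 (-0.01). Over all other-autosome genes 45.7% lay above 0, 0.625% were called higher and 3.32% lower. At those shares lists of this size would hold few or no called genes, so the 0 says little.

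Housekeeping lists lay near 0. Of 51 cytosolic ribosomal protein genes 46 lay above 0, with a median of 0.06 and 0 called; Rps14 was at 416 against 367 (0.19 ± 0.07). Of 28 proteasome genes 0 were called, with a median of 0.05. Over all other-autosome genes 45.7% lay above 0 and 0.625% were called higher, so 0 called in lists of this size says little. Of 18 glycolysis genes 1 was called lower, beside 3.32% of all other-autosome genes, with a list median of -0.02. This was Slc16a3, a lactate exporter gene (22.6 against 39.7, log2 -0.78 ± 0.47). It was not called without low-marker cells (-0.65 ± 0.64), its sign differing between lanes. The single measured gene of the early embryo (2-cell) list, Eif1a, was at 0.27 ± 0.04.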

How the data were processed

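RamDA-seq of 419 cells gave the 2 deposited tables (129 and CAST; 117762 transcript rows, a column for every cell). The deposited values are taken here as a score: allele estimates scaled by the authors to nearly common totals and rounded. Read depth is unknown. The submitters' processing notes name Bowtie 1.1.2 and mm10 without a role; how reads were assigned to alleles is not stated there. No count test was run.

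Rows were joined to GENCODE vM21 (116824 matched), which gave gene starts. Rule rows needed a summed value of at least 1000, a pooled 129 share of 10 to 90% and a summed difference between alleles of at least 10%. Values of all rows of a gene were summed over alleles, divided by the cell's total, and averaged per class and lane. Log2 ratios used a pseudocount of 1 ppm for genes, and none for regional sums, and were averaged over 5 lanes, so they can differ from the ratio of the printed means. Genes that averaged under 10 ppm were left out.

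Members and lists were chosen with earlier results of these data known. Named are the 12 most expressed distal genes, the 5 highest and lowest ratios and the listed regulators among them, the 10 highest and 10 lowest called genes elsewhere, and members of each of 26 lists; the genes at the break and further list members or called genes (Lefty2, Nodal and the like) were picked after their values were seen. Predicted symbols are counted, not named. Python 3.11.15 with numpy 2.4.6 and pandas 2.3.3 was used, and the scripts were tested on simulated data. No doublet caller was run. A few genes are not reported here.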

Additional observations from a re-analysis of the deposited data

How the results depend on the processing

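Each ratio was formed within a lane, and no test with a block was run since there was 1 sample. The class sizes kept within 1.5 times (skewed 234 to 295, balanced 91 to 118), and the CAST log2 ratio stayed between 1.43 and 1.52 and that of the sum between 0.89 and 0.96. Leaving out each lane gave 1.47 to 1.51 for CAST, 0.91 to 0.94 for the sum, -0.06 to -0.04 for 129, 44 to 68 genes higher and 263 to 364 lower. The 129 log2 ratio of -0.05 became -0.00384 when cells were classed on 103 genes and measured on the other 103, and -0.0013 as the median over genes. Counts of other-autosome genes depended on the limits. With a mean of at least 50 ppm they were 15 higher and 50 lower, with no filter on low values 146 and 673, with differences of mean log2 values 145 and 164, and at the lower limit on fold change 200 and 752. Alternatives added after the data were seen left out cells with a marker sum under 33, 50 or 70% of the median: 128, 126 and 114 genes were then lower. There Col12a1 turned to 0.19 (33%), Phldb2 to 0.34 (50%) and 0.47 (70%), and Acta1 to 0.084 (70%); the added settings remove the cells that hold most of these genes' values. Of 1430 further values under the alternatives, 1322 moved by less than the SD over lanes and 104 by more. For a count the limit was 1.5 times. These values are ratios of single genes, medians of gene lists and the number of genes measured. The 4 changes of sign given above make up the rest. Only genes called in the main setting were counted as changing sign. Other values also crossed 0, such as Tcl1, from 0.14 to -0.03 without low-marker cells. Depth in reads is unknown, so low values carry no counting interval.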
